A study of Homo sapiens with 8 samples.

Results

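The imprinted DLK1-DIO3 cluster on chromosome 14 holds one of the longest runs of microRNA (miRNA) hairpins in the human genome. Its mature products were taken as every listed miRNA name whose miR number is one of 43 numbers known from that locus, whatever the strand, letter or copy suffix. This gave 74 of 1818 names, or 4.07% of all names listed in any library. They cover 38 of the 43 numbers. The other 5 numbers, miR-337, miR-433, miR-665, miR-668 and miR-770, had no read in any library, which allows each up to 3 reads per library.

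The libraries came from HCT116, a human colorectal carcinoma cell line, in which the labels call each sample a rescue with DICER. DICER cleaves the precursor hairpin of a miRNA near its loop and leaves a duplex of a 5p and a 3p strand, of which one is usually kept. The 4 groups were rescues with wild-type DICER (WT), R1855L DICER, R821H DICER and R1003Q DICER, 2 libraries each. The labels do not say which DICER the host cells still make, how the rescue was expressed, whether a group is 1 clone, or whether replicates were separate cultures, so a p-value speaks of the scatter of these libraries alone, and that scatter may be technical. R1855L lies in the C-terminal double-stranded RNA binding domain, R821H in the platform region and R1003Q in the PAZ domain, which with the platform holds the ends of the hairpin. Levels and strand shares of the locus were compared between each mutant and WT. Paired values below are always given as replicate 1 and then replicate 2.

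At this locus the paternal chromosome makes the proteins DLK1, RTL1 and DIO3, and the maternal chromosome makes long non-coding RNAs (MEG3, MEG8, MEG9), small nucleolar RNAs and the miRNAs. The miRNAs are best known from placenta, embryo, brain and mesenchymal cells, and many tumours silence the maternal transcript by methylation. Those around RTL1 are read from the strand opposite to it, and miR-127 is the textbook case of a miRNA that pairs perfectly with its antisense gene. The other run of hairpins, from miR-379 to miR-410, arose largely by tandem duplication, and in neurons it is switched on by the activity-dependent factor MEF2.

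All 74 names matched a mature sequence in RefSeq (GRCh38.p14), and all 74 lie on the plus strand of chromosome 14. In that build the 9 names nearest to MEG3 and RTL1 span 100869075 to 100911207, downstream of MEG3 (100826108 to 100861026), and those from miR-431 to miR-136 lie within RTL1 (100879753 to 100903722). The other 65 names lie 111 kb further on, between 101022071 and 101066786, where the long non-coding RNA gene MIR381HG (101045157 to 101051795) covers those from miR-381 to miR-655. The sequences of 6 abundant names are shown because they are among the members with most reads, with miR-409 and miR-411 added because they showed the widest fitted difference in R1855L. Capitals mark the seed (bases 2 to 8), which selects the targets of a miRNA.
miR-369-3p: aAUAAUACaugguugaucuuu
miR-154-5p: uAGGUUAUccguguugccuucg
miR-495-3p: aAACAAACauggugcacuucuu
miR-376c-3p: aACAUAGAggaaauuccacgu
miR-381-3p: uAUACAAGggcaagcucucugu
miR-127-3p: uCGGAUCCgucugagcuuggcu
miR-409-3p: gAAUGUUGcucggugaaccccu
miR-411-5p: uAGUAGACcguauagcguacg

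The names hold 65 distinct seeds, and 8 of these are shared by 2 or more names, 17 names in all. The shared seeds with most reads are those of miR-376a-3p with miR-376b-3p, from hairpins known for A-to-I editing in brain, and of miR-154-3p with miR-487a-3p. They are shown because strands with a shared seed can differ little or more behind it. Those of miR-376a-3p and miR-376b-3p are near-identical and can exchange reads in mapping, so the split of reads between them is uncertain. Those of miR-154-3p and miR-487a-3p differ at several bases behind the seed.
miR-376a-3p: aUCAUAGAggaaaauccacgu
miR-376b-3p: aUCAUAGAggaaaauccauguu
miR-154-3p: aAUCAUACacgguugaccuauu
miR-487a-3p: aAUCAUACagggacauccaguu

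A stretch just behind the seed recurs among the names. The letters AUGGUNNAC, searched on the mature strand itself and chosen after the sequences were seen, occur in 6 of the 74 names (8.11%) and in 9 of 2370 RefSeq mature names (0.380%), these 6 included. The cluster names were richer in A and U, with a median of 54.5% against 47.6% over 1529 other listed names with a RefSeq sequence. An A at the first base was found in 44.6% of them against 26.2% of the others, and both sets had a median length of 22. These are descriptions of the sequences, without a test.

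Library totals ran from 462805 to 4269231 reads, a 9.22-fold range. One read weighs most in the shallowest library, R1855L replicate 2, where a count of 0 (3 reads at most) allows 5.52 CPM, against 0.780 CPM in the deepest, WT replicate 2. CPM are counts per 1000000 reads of a library total that was corrected for composition by TMM. Such floors and the intervals below cover counting error only, since no molecular identifiers are named. WT replicate 2, R1855L replicate 1 and R821H replicate 1 are deep and the other 5 shallow, and a model term for this depth class raised the names called in R1855L from 36 to 177 of 625. Colon epithelial markers were present, at a summed 3454 to 5016 CPM over 9 of 9 names, with miR-200a-3p at 929.8 CPM or more in every library. The lowest of the 9 was miR-215-5p, at 0 to 7.11 CPM.

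The cluster as a whole was expressed at a low and even level in all 4 groups. Its 74 names took 3475 reads, between 0.0226% (exact Clopper-Pearson 95% interval 0.0210 to 0.0243, R821H replicate 1) and 0.0298% (0.0251 to 0.0352, R1855L replicate 2) of a library. WT summed to 251.4 and 274.1 CPM, R1855L to 266.5 and 253.9, R821H to 257.5 and 229.9, R1003Q to 251.2 and 257.3. R1855L lay inside the WT range, R1003Q overlapped it, and R821H replicate 2 was the lowest library. Group means were 262.8 ± 16.1 CPM (SD, n = 2) in WT, 260.2 ± 8.91 in R1855L, 243.7 ± 19.5 in R821H and 254.3 ± 4.32 in R1003Q. On the log2 scale the sum differed from WT by -0.01 in R1855L, -0.11 in R821H and -0.05 in R1003Q, each less than the distance between the 2 WT libraries. Scaled to library totals, R821H differed by -0.24, and both of its libraries (0.0226% and 0.0229% of reads) lay below WT (0.0291% and 0.0247%). In RNA from whole cultures, few cells with much of a miRNA and many cells with little cannot be told apart.

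The number of names seen followed depth and not group. It ran from 38 in the shallowest to 67 in the deepest library. When the expected number was computed at the total of the shallowest library, it lay between 35.0 and 38.1 in all 8. Of the 74 names, 24 had reads in every library and 8 in a single library, and 24 had at most 10 reads in all. All member counts were whole numbers.

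The reads were concentrated in the run from miR-379 to miR-410. Its 65 names held 3310 reads, or 95.3% of the cluster, and the 9 names near MEG3 and RTL1 held 165, or 4.75%. miR-369-3p, known for its pairing with AU-rich elements of the TNF message, was the most abundant name with 576 reads (16.6%), and miR-154-5p, the namesake of the largest sequence family here, followed with 283 (8.14%). Even so, miR-369-3p ranked 345 among the 1818 names by reads summed over the libraries.

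**Figure D1:**
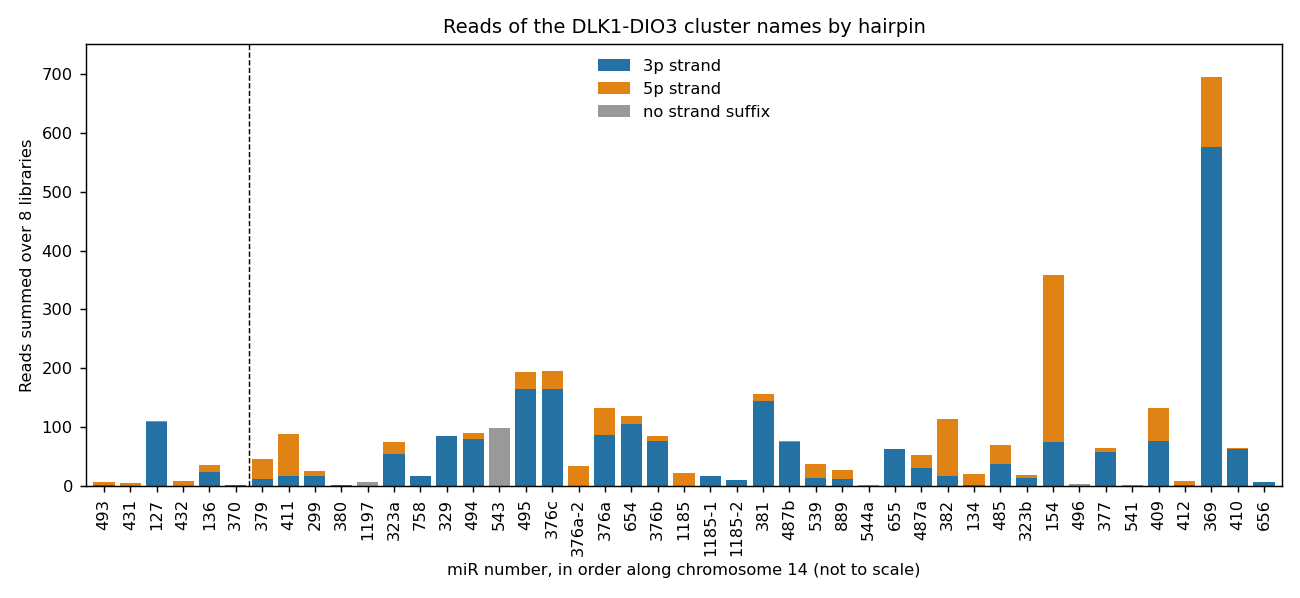
Reads summed over the 8 libraries (vertical axis) for each miR number in its order along chromosome 14 (horizontal axis), stacked by strand, with a name made by several hairpins placed at its first. Left of the dashed line are the names near MEG3 and RTL1, where miR-127-3p holds 108 of 165 reads, and at the far right miR-369 stands highest with 576 reads of its 3p and 120 of its 5p strand.

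Among the names antisense to RTL1 or close to it, miR-127-3p led. WT had 19 and 25 reads of it, R1855L 6 and 9, R821H 28 and 9, R1003Q 6 and 6. Scaled to depth, WT stood at 14.4 and 6.50 CPM, R1855L at 2.95 and 16.6, R821H at 9.55 and 10.7, R1003Q at 5.36 and 8.53. R1855L thus held both the lowest and the highest library. miR-136 followed with 23 reads of its 3p and 12 of its 5p strand. miR-432-5p (8 reads), miR-493-5p (6), miR-431-5p (4), miR-127-5p (2), miR-493-3p (1) and miR-370-3p (1) completed this group.

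In the larger run, the leading name overlapped between groups and the next did not in every mutant. For miR-369-3p WT stood at 38.7 and 43.4 CPM, R1855L at 55.1 and 38.6, R821H at 42.3 and 39.3, R1003Q at 42.0 and 29.9. Both WT libraries lay inside the range of R1855L, and each mutant overlapped WT. Of miR-154-5p WT held 16.7 and 15.3 CPM, R1855L 23.1 and 20.2, R821H 26.3 and 16.7, R1003Q 26.8 and 32.7. R1855L and R1003Q lay above both WT libraries and R821H overlapped them.

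miR-495-3p had 12.2 and 13.3 CPM in WT and between 5.52 and 14.8 in the mutants, and miR-381-3p had 9.11 and 14.3 in WT and between 7.38 and 12.8 in the mutants. miR-376c-3p differed more: WT held 15.2 and 18.99 CPM, R1855L 8.85 and 12.9, R821H 10.9 and 2.38, R1003Q 6.26 and 7.11. Every mutant library lay below both WT libraries. miR-654-3p stood at 8.35 and 10.7 CPM in WT and at 3.93 and 7.36 in R1855L, and miR-543 at 8.35 and 9.62 in WT and 4.43 and 5.52 in R1855L, also without overlap. R821H also lay below WT for miR-543 (5.80 and 5.96 CPM) and overlapped it for miR-654-3p, and R1003Q overlapped WT for both.

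The 5p strand of miR-369 and the remaining tested names were scarcer. Of miR-369-5p WT held 10.6 and 7.28 CPM, R1855L 14.3 and 14.7, R821H 7.50 and 2.38, R1003Q 10.7 and 7.11, with R1855L alone clear of WT. miR-382-5p stood at 4.56 and 8.06 CPM in WT and between 1.84 and 10.6 in the mutants, miR-655-3p at 7.60 and 4.94 in WT and between 1.42 and 9.20 in the mutants. Both ranges of the mutants enclose WT, but both R821H libraries of miR-655-3p (2.73 and 4.76 CPM) lay below both WT libraries. For miR-376a-3p WT held 6.08 and 9.10 CPM and R1855L 1.48 and 7.36, which overlap.

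**Figure D2:**
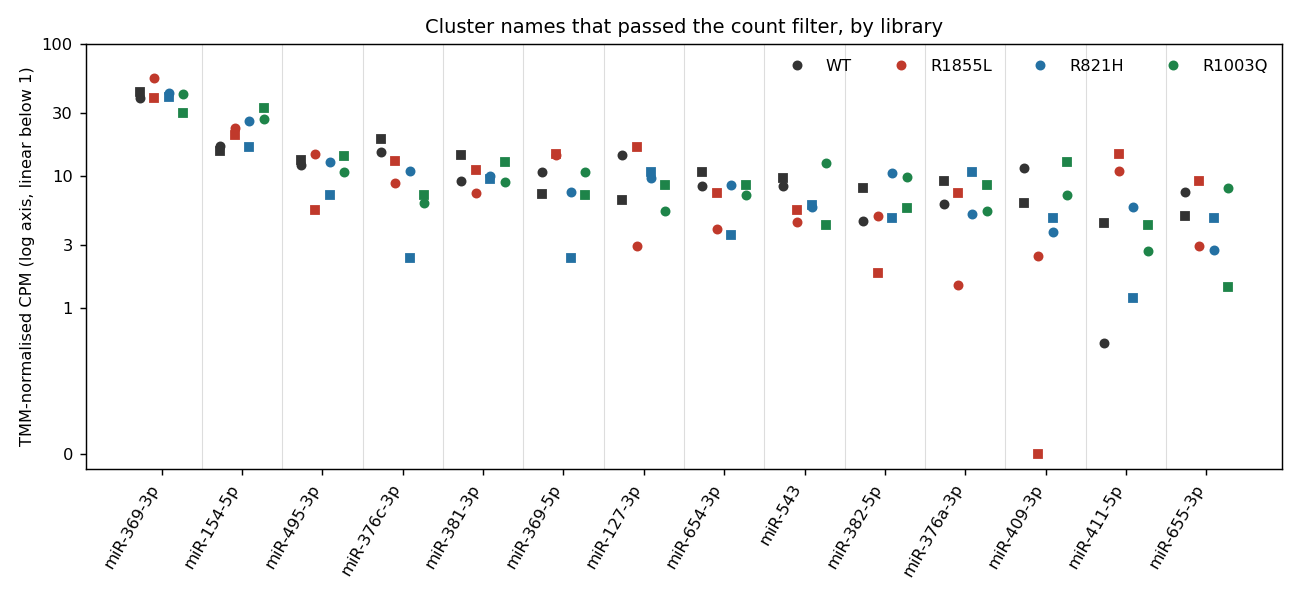
TMM-normalised CPM (vertical axis, logarithmic above 1) of the 14 names that passed the count filter (horizontal axis), with circles for replicate 1 and squares for replicate 2 of each group. miR-369-3p lies between 29.9 and 55.1 CPM in all 8 libraries. Both R1855L libraries lie below both WT libraries in 4 of the 14 names, with miR-409-3p among them. They lie above in 3, with miR-411-5p among them, against 21.4% and 21.1% of all tested names.

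Only 14 of the 74 names passed the filter on low counts (edgeR filterByExpr), and they held 62.1% of the cluster reads. The filter keeps a low name more readily where some group is high, so counts over these 14 describe them and do not speak for the other 60. Of the 14 names, 0 were called in R1855L against WT at an adjusted p under 0.05 by edgeR's quasi-likelihood test, where 5.76% of all 625 tested names were called. DESeq2 also called 0 of 14, beside 8.32% of all names, and a fit with the replicate number as a block called 0 of 14, beside 3.04%. At an unadjusted p under 0.05 there were 2 of 14, beside 18.4% of all tested names. The median log2 fold change was -0.42 with 10 of 14 below 0, against 0.13 and 42.4% of names below 0 over all tested. Most of the 14 are 3p strands, and this median does not stand for the whole cluster, whose sum in R1855L lay inside the WT range. Both libraries lay below both WT libraries in 4 of 14 and above in 3 of 14, against 21.4% and 21.1% of all tested names. Those above were all 5p strands (miR-154-5p, miR-369-5p and miR-411-5p), and miR-411-5p passed the filter only through R1855L. Those below were miR-376c-3p, miR-409-3p, miR-543 and miR-654-3p. Of these, miR-409-3p, miR-543 and miR-654-3p passed the filter only with the help of WT libraries. The counts of names below WT or below 0 thus describe these names and are no separate support.

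The widest fitted differences in R1855L were those of miR-409-3p and miR-411-5p. Of miR-409-3p WT gave 15 and 24 reads, R1855L 5 and 0, R821H 11 and 4, R1003Q 8 and 9. Both R1855L libraries, at 2.46 and 0 CPM, lay below WT (11.4 and 6.24 CPM), although the 0 allows up to 5.52 CPM. The name passed the count filter only with the help of WT replicate 1, so its height in WT is no separate support. The log2 fold change was -2.17 (SE 0.80, 95% interval -4.04 to -0.31, edgeR adjusted p = 0.211), and -6.82 without R1855L replicate 1, where the library at 0 stands alone and the size is no bound. In R821H (3.75 and 4.76 CPM) the libraries also lay below WT, with -1.03 (SE 0.68), and in R1003Q (7.15 and 12.8 CPM) they overlapped WT.

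miR-411-5p went the other way in R1855L. WT gave 1 and 17 reads, R1855L 22 and 8, R821H 17 and 1, R1003Q 3 and 3. At 10.8 and 14.7 CPM both R1855L libraries lay above WT (0.760 and 4.42 CPM) and above all 4 libraries of the other mutants. The name passed the count filter only through its R1855L libraries. Its height there and the fitted values below thus describe it and are no separate support. Its log2 fold change was 1.97 (SE 0.78, 95% interval 0.15 to 3.80, edgeR adjusted p = 0.246), and 3.79 without WT replicate 2. With a term for the depth class in the model, 2 of 14 names were called in R1855L, miR-409-3p lower (-1.95, adjusted p = 0.04995) and miR-411-5p higher (1.85, adjusted p = 0.0232), where that model called 28.3% of all names. R1855L had the lowest total within each depth class, and the part of depth in these calls was not tested.

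For the abundant names the intervals in R1855L show what these libraries could miss. For miR-369-3p the log2 fold change was 0.21 (95% interval -0.52 to 0.94), or -0.19 without R1855L replicate 1, and for miR-154-5p it was 0.46 (-0.37 to 1.29). miR-654-3p and miR-543 had -0.93 (-2.28 to 0.41) and -0.92 (-2.26 to 0.42). miR-127-3p had -0.37 with an interval from -2.27 to 1.53, and its sign turned with the library left out: it was -1.74 without R1855L replicate 2 and 0.64 without R1855L replicate 1.

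R821H called 0 of 14 names, where 0.0% of all 625 were called, and 0 of 14 had an unadjusted p under 0.05 by edgeR (3.2% of all names). DESeq2 called 0 of 14 as well (0.16% of all names), as did the fit with a depth term (2.56%). Both libraries lay below both WT libraries in 4 of 14 names, which were miR-376c-3p, miR-409-3p, miR-543 and miR-655-3p, and above in 0 of 14, against 13.1% and 15.4% of all names. Of those below, miR-409-3p, miR-543 and miR-655-3p passed the count filter only with the help of a WT library. The log2 fold changes ran from -1.16 to 0.47, with a median of -0.30 against 0.04 over all tested names and 10 of 14 below 0 against 44.6%. The lowest was that of miR-376c-3p (-1.16, SE 0.56, 95% interval -2.46 to 0.14), which was -2.89 without R821H replicate 1 and -0.68 without R821H replicate 2.

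R1003Q likewise called 0 of 14 by edgeR and by DESeq2, where 0.0% of all names were called by either, and by the fit with a depth term (0.32% of all names), and 1 of 14 had an unadjusted p under 0.05 (4.96% of all names). That name was miR-154-5p, at 0.89 (SE 0.35, 95% interval 0.06 to 1.71, edgeR adjusted p = 0.857), and both libraries lay above both WT libraries. The lowest was again miR-376c-3p (-1.37, SE 0.62, 95% interval -2.81 to 0.07). These were also the names clear of WT in this mutant, 1 of 14 above and 1 of 14 below, against 22.9% and 17.8% of all names. The median was -0.11 against 0.06 over all tested names, with 9 of 14 below 0 against 43.7%. The 3 comparisons share the WT libraries, so that a name high in WT by chance appears low in each. Between the mutants, 0 of 14 names were called in any of the 3 pairs, which were compared after the data were seen (percentages of all names called were 3.84% for R1855L against R821H, 3.68% for R1855L against R1003Q and 0.0% for R821H against R1003Q).

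**Figure D3:**
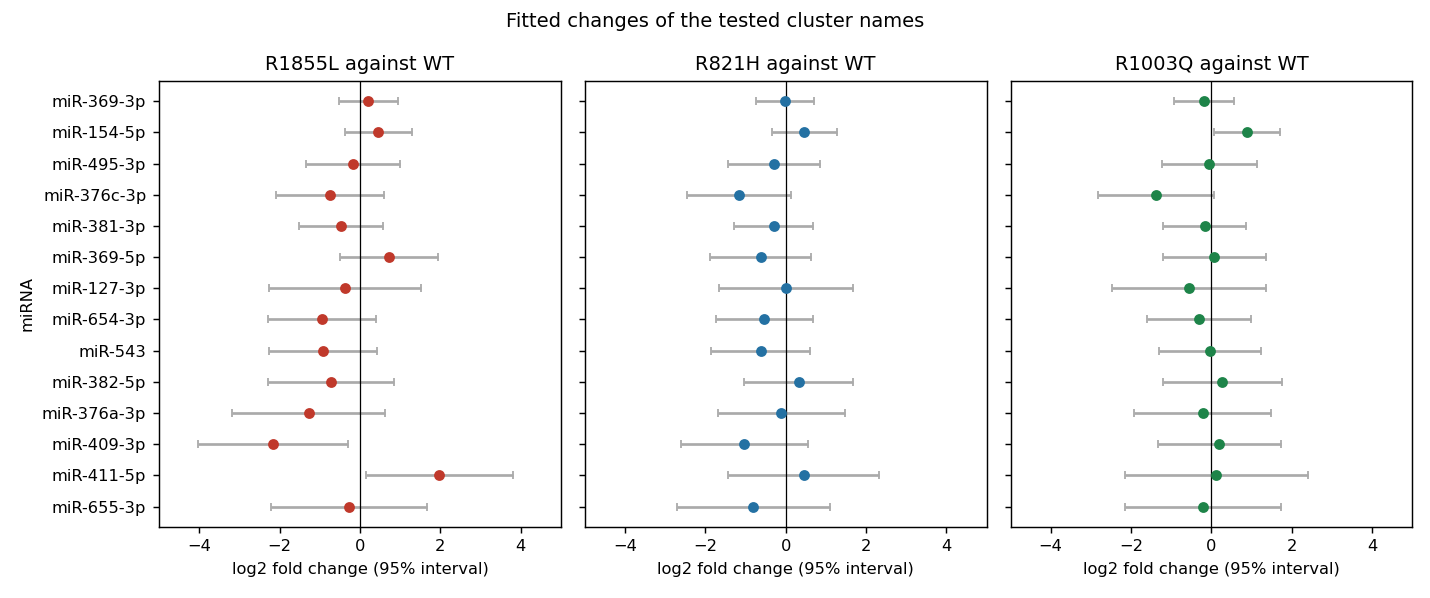
Fitted log2 fold change against WT (horizontal axis) with its 95% interval (bars, derived from the edgeR fit) for the 14 tested names (vertical axis), one panel per mutant. In R1855L the intervals of miR-409-3p (-4.04 to -0.31) and miR-411-5p (0.15 to 3.80) leave out 0, as that of miR-154-5p (0.06 to 1.71) does in R1003Q, and none passes adjustment. miR-411-5p passed the count filter only through its R1855L libraries, and miR-409-3p only with the help of WT replicate 1.

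The 3p strand dominated most hairpins. The 36 names of 3p strands held 2299 reads, the 34 of 5p strands 1066 and the 4 names without a strand suffix 110, of which miR-543 had 99. Of the 29 hairpins with both strands listed, 19 had more 3p reads, 9 had more 5p reads and 1 was equal. miR-154 (283 reads of 5p and 75 of 3p), miR-382 (98 and 16), miR-411 (72 and 17) and miR-379 (34 and 11) favoured 5p. miR-127 (2 and 108), miR-487b (3 and 74), miR-410 (2 and 62), miR-381 (12 and 144), miR-376b (7 and 77) and miR-494 (10 and 80) lay far on the 3p side. For miR-329 and miR-655 only the 3p strand was listed, with 85 and 62 reads.

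In TMM-normalised CPM the sum of 3p strands was lower and that of 5p strands higher in every mutant library than in both WT libraries. For 3p strands WT summed to 180.01 and 197.9 CPM, R1855L to 157.8 and 152.7, R821H to 161.3 and 157.2, R1003Q to 157.4 and 164.9. For 5p strands WT summed to 63.0 and 65.0 CPM, R1855L to 103 and 95.7, R821H to 89.4 and 66.7, R1003Q to 81.4 and 88.1. R821H replicate 2 stood just above WT in the 5p sum, and the R1855L libraries stood highest. Scaled to library totals, 1 library failed in each sum: R821H replicate 2 had 66.5 reads of 5p in 1000000 against 72.9 in WT replicate 1, and R1855L replicate 2 had 179.3 of 3p against 178.3 in WT replicate 2. Group means of the 5p sum were 64.0 ± 1.40 CPM (SD, n = 2) in WT, 99.5 ± 5.36 in R1855L, 78.0 ± 16.0 in R821H and 84.8 ± 4.80 in R1003Q.

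As a share of the cluster's strand reads, which library scaling cannot move, 5p strands made up 25.9% (exact 95% interval 21.2 to 31.1) and 24.7% (22.1 to 27.5) in WT. The share was 39.5% (35.4 to 43.8) and 38.5% (30.3 to 47.3) in R1855L, 35.6% (32.2 to 39.2) and 29.8% (23.4 to 36.9) in R821H, and 34.1% (28.4 to 40.1) and 34.8% (27.9 to 42.3) in R1003Q. In the deep libraries alone the share was 24.7% in WT, 39.5% in R1855L and 35.6% in R821H, and in the shallow libraries WT was again lowest. With 2 libraries against 2 an exact two-sided permutation test cannot go below p = 0.333, and no p is given for a sum over these names. Without the miR-369 and miR-154 hairpins WT had shares of 20.6% and 22.5%, R1855L 41.0% and 34.7%, R821H 32.8% and 28.8%, R1003Q 27.7% and 27.2%.

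The 5p share of R1855L was also above WT outside this locus. Over all other names with a strand suffix it was 65.1% and 73.2% in WT and 82.7% and 73.6% in R1855L, where replicate 2 lay close to the higher WT library. R821H had 73.4% and 66.2% and R1003Q 68.3% and 69.3%. Less the dominant miR-21-5p, the 5p share of reads was 49.7% and 55.8% in WT and 67.2% and 61.0% in R1855L. R821H then had 54.0% and 48.3% and R1003Q 51.0% and 52.3%, of which all but R821H replicate 2 lay inside the WT range. Whether the cluster's share moved by more than that of other names was not tested.

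**Figure D4:**
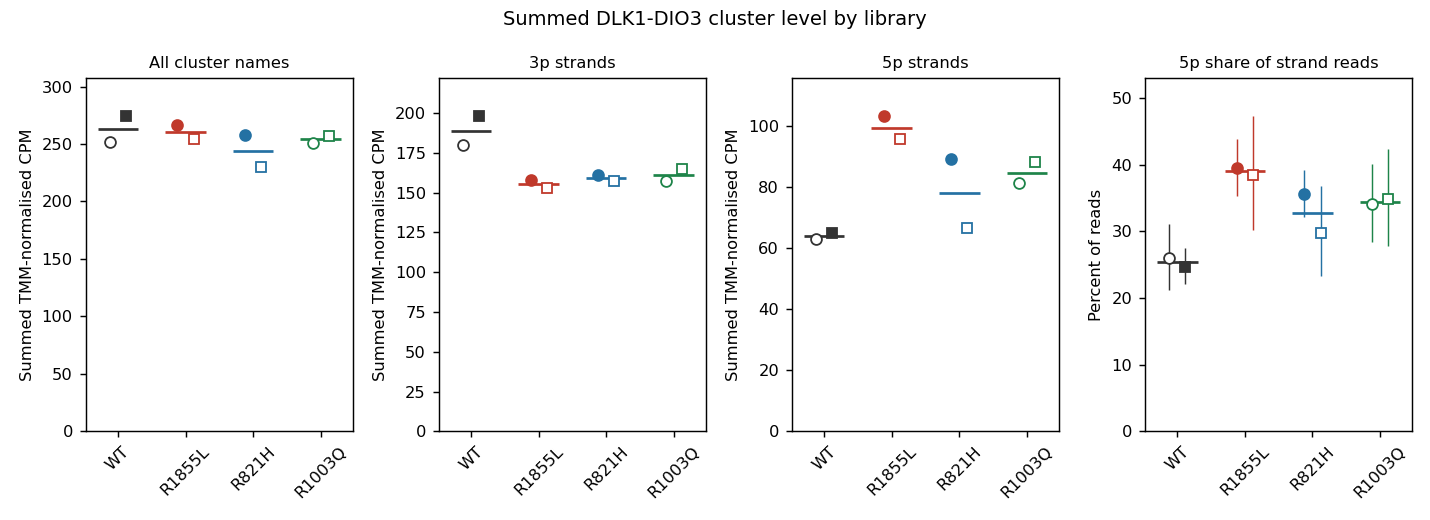
Level of the cluster in each library as the sum of TMM-normalised CPM over all 74 names, over 3p strands and over 5p strands, and the 5p share of strand reads in percent with exact 95% intervals (vertical lines). Circles are replicate 1, squares replicate 2, filled symbols deep libraries, open symbols shallow ones and horizontal lines group means. The sum over all names stays between 229.9 and 274.1 CPM, while on this scale WT is highest in the 3p panel and lowest in the 5p panels.

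Within single hairpins the strand ratio (log2 of 5p over 3p reads, with 0.5 added to each) was tested by limma for miR-369 only, the 1 cluster hairpin among 174 with at least 80 reads of each strand summed over the libraries. The hairpins discussed here are shown with both mature strands in capitals (RefSeq, GRCh38.p14, plus strand of chromosome 14), because DICER cleavage sets the loop-side end of both strands.
MIR369, chr14:101065598-101065667: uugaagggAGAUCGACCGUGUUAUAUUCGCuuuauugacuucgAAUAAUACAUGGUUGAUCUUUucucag
MIR376C, chr14:101039690-101039755: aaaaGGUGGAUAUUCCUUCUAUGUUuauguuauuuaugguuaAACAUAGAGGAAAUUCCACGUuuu
MIR409, chr14:101065300-101065378: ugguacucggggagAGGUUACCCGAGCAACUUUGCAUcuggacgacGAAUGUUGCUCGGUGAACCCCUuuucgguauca
The miR-369 ratio was -2.19 ± 0.51 in WT (SD, n = 2), -1.63 ± 0.42 in R1855L, -3.11 ± 0.90 in R821H and -1.95 ± 0.03 in R1003Q. It was called in 0 of 3 mutants, where 7.47%, 0.0% and 0.0% of the 174 ratios were called, with changes of 0.56 (SE 0.61), -0.91 (SE 0.61) and 0.25 (SE 0.61).

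With the minimum lowered to 20 reads per strand, 8 cluster hairpins entered among 273, and 0 of 8 were called in any mutant (limma called 4.03%, 0.0% and 0.0% of the 273). In R1855L all 8 leaned toward 5p, with a median change of 1.38 log2 units, against 65.6% of all 273 hairpins and a median of 0.31. In R821H and R1003Q 6 of 8 leaned that way, with medians of 0.70 and 0.71, against 63.0% and 57.5% of all hairpins and medians of 0.18 and 0.16. Both libraries lay above both WT libraries in 4 of 8 ratios in each mutant, where this held for 33.7%, 21.2% and 29.7% of the 273 hairpins in R1855L, R821H and R1003Q. With nothing added to the reads, an alternative chosen after seeing the data, the counts were 4, 3 and 2 of 8, beside 31.5%, 21.6% and 28.2%.

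miR-409 and miR-376c had the widest fitted change in ratio in R1855L. Of the 5p strand of miR-409, WT gave 4 and 11 reads and R1855L 12 and 4, beside 5 and 0 reads of the 3p strand in R1855L. Its log2 ratio was -1.44 ± 0.49 in WT (SD, n = 2) and 2.18 ± 1.40 in R1855L, a change of 3.61 (SE 0.96, limma adjusted p = 0.0557), with 0.00 ± 0.00 in R821H and -0.73 ± 0.49 in R1003Q. Of miR-376c, WT gave 1 and 6 reads of 5p with 20 and 73 of 3p, and R1855L 12 and 4 with 18 and 7. Its ratio was -3.64 ± 0.19 in WT and -0.65 ± 0.12 in R1855L, which differ by 2.98 (SE 0.87, adjusted p = 0.0849 in limma), and was -2.44 ± 0.17 in R821H and -1.73 ± 0.20 in R1003Q. All 6 mutant libraries lay above both WT libraries in both hairpins, but in 2 libraries this came from the added 0.5. With reads as counted, R821H replicate 2 fell below WT for miR-376c (0 reads of 5p and 2 of 3p), and R1003Q replicate 2 (4 and 9 reads) fell just below WT replicate 2 (11 and 24 reads) for miR-409. miR-323a-3p, named after its values were seen, had 8 and 17 reads in WT against 1 and 0 in R1855L, while its 5p strand had at most 2 reads in any of these 4 libraries.

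**Figure D5:**
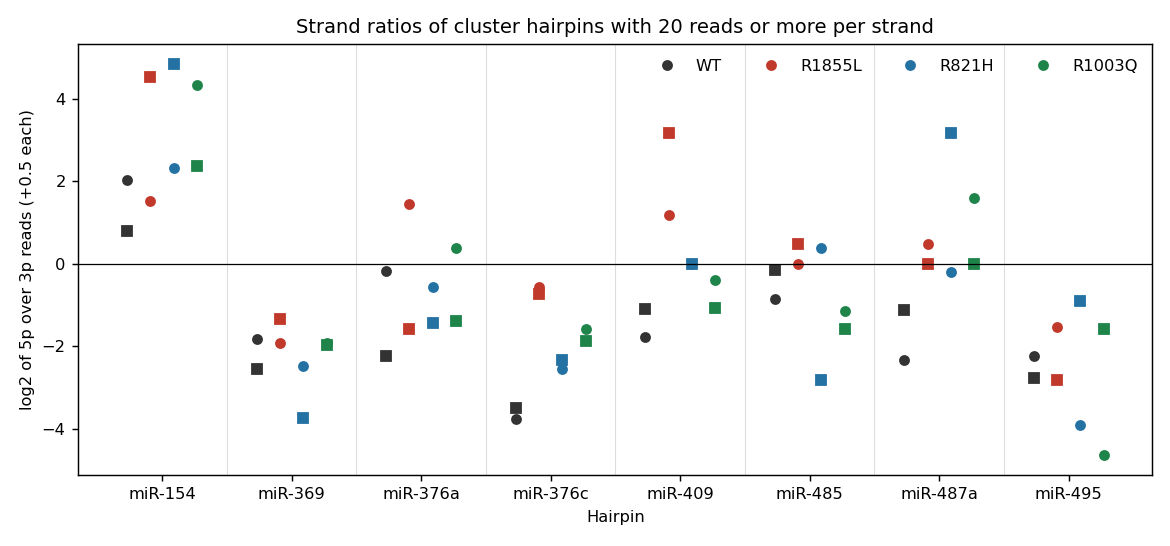
Log2 of 5p over 3p reads, with 0.5 added to each (vertical axis), for the 8 cluster hairpins with at least 20 reads per strand (horizontal axis), with circles for replicate 1 and squares for replicate 2. The 3p reads of miR-376a come from a pair of hairpins. In miR-376c and miR-409 R1855L lies highest and WT lowest, the latter resting on the added 0.5 against R821H replicate 2 (miR-376c) and R1003Q replicate 2 (miR-409). The miR-369 ratios of R1855L overlap WT.

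Among the 20 names with most reads, 6 were below the count filter. miR-329-3p lay between 5.46 and 9.95 CPM, miR-494-3p between 4.09 and 7.38, miR-487b-3p between 3.68 and 7.15 and miR-410-3p between 1.84 and 5.36. R1003Q (8.05 and 9.95 CPM, from 9 and 7 reads) lay above all other libraries for miR-329-3p. R821H (6.48 and 7.15 CPM, from 19 and 6 reads) did for miR-487b-3p. Both were picked after their values were seen, without a test, and at such counts few reads separate the groups. How many of all names separate in this way was not counted. miR-376b-3p had 5.32 and 9.36 CPM in WT and 1.97 and 1.84 in R1855L, while R821H reached 10.7. The tested miR-376a-3p, which shares its seed, had a log2 fold change of -1.28 (SE 0.81) in R1855L that did not pass. Of miR-154-3p WT gave 5 and 34 reads, R1855L 16 and 0, R821H 15 and 0, R1003Q 1 and 4, so that 2 shallow libraries held none. All 60 names that were not tested had between 1 and 85 reads in all.

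Other names of the locus and of like clusters were read beside these. Of 5 further miR numbers on 14q32, 4 (miR-300, miR-453, miR-1193 and miR-2392) had no read. miR-1247, next to DIO3 and on the opposite strand, was higher than any cluster name, at 72.3 to 200.6 CPM for its 5p strand. It had 147 and 278 reads in WT and 253 and 109 in R1855L. Of its 2 tested strands edgeR called 0 in any mutant, beside 5.76%, 0.0% and 0.0% of all names in R1855L, R821H and R1003Q. The log2 fold changes of miR-1247 in R1855L were 0.82 (SE 0.41) for 5p and 1.55 (SE 0.54) for 3p. The imprinted miRNA cluster of chromosome 19, best known from placenta, had 36 names with 965 reads and a summed 52.8 to 112 CPM. Of its 4 tested names 0 were called, beside the same shares of all names. Some of its names had equal counts in every library, such as miR-519b-5p, miR-519c-5p, miR-522-5p and miR-523-5p. The same reads may thus be counted more than once in these sums. The X-linked cluster of testis miRNAs had 16 names with 59 reads and at most 5.69 CPM.

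Markers of cells known to make the DLK1-DIO3 miRNAs were also read. The 7 fibroblast names summed to 681.3 to 859.3 CPM, mostly miR-145-5p (562.2 to 758.1 CPM), with miR-214-3p at 0 to 5.96 CPM and miR-199a-3p at 12.9 to 27.3 CPM. Group ranges of this list were 701 to 780 CPM in WT, 753 to 859 in R1855L, 681 to 827 in R821H and 727 to 749 in R1003Q. Of its 5 tested names 0 were called by edgeR, beside 5.76% of all names in R1855L and 0.0% in R821H and in R1003Q. Of the neuronal names, miR-124-3p reached at most 1.84 CPM and miR-219a-2-3p 1.48 CPM, while miR-9-5p (452.6 to 1186 CPM) and miR-128-3p (420 to 1411 CPM) were abundant, and miR-128-3p was called lower in R1855L (-1.57). Of the colon epithelial names 3 of 8 tested were called lower in R1855L, where 5.76% of all names were called in either direction. These 3 were miR-141-3p, miR-203a-3p and miR-429. Blood names summed to 635 to 933 CPM, with 0 of 5 called beside the same shares of all names. The largest were miR-142-3p (284 to 383 CPM) and miR-451a (111 to 333 CPM). miR-223-3p (9.20 CPM at most), miR-150-5p (9.95) and miR-155-5p (1.19) were low. miR-122-5p of liver stood at 67.4 to 118 CPM, and muscle names (3.64 to 12.3 CPM) and germ or stem cell names (9.87 to 24.1 CPM) were low. Whether a few cells of another kind carried the cluster's reads was not tested.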

How the data were processed

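Small RNA libraries were made from total RNA by AQ-seq, per the labels' protocols; AQ-seq is known for adapters with random ends, which lessen ligation bias. The authors deposited 1 table of estimated counts per library, with a fractional value for some miRNAs and no normalisation. Per the submitters' processing notes, BWA, bedtools and cutadapt were used, with hg38 and mm10 as builds; how reads with several matches were counted is not given in the sources used here. Fractional counts were rounded before testing. Names were filtered with filterByExpr (99.85% to 99.88% of reads kept), scaled by TMM and tested with edgeR 4.0.16 (quasi-likelihood, all 8 libraries in 1 fit, adjusted p threshold 0.05). Strand ratios were tested with limma 3.58.1, and DESeq2 1.42.0 was an alternative, in R 4.3.3. P-values were adjusted over all names or ratios tested. Scripts were tested on simulated data. Library totals are in the text. The miRNA names described are those that passed the filter, the 20 with most reads, and their other strands. The members, lists and markers were chosen with earlier results of these data known, and contrasts between mutants and the 5p and 3p sums and shares were added after seeing the data. Sequences and positions come from RefSeq (GRCh38.p14) and figures were drawn with matplotlib 3.10.9.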

Additional observations from a re-analysis of the deposited data

How the results depend on the processing

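Over the alternatives run, the count of called cluster names was 0 of those tested in each mutant, except that a depth term gave 2 in R1855L (miR-409-3p and miR-411-5p), where the cause was not tested. Between 8 and 74 cluster names were tested under other filters and sets of libraries. Scaling to library totals moved the median over all tested names in R821H from 0.04 to -0.08 on the log2 scale, the 3p sum there from -0.25 to -0.37 and the sum over all names from -0.11 to -0.24. Without the miR-369 and miR-154 hairpins, which hold many of the reads, the 5p sum of R1003Q went from 0.40 to 0.24 and the 3p sum of R1855L from -0.28 to -0.44. The 5p share then stood 16.3 percentage points above WT in R1855L (13.7 with them) and 5.86 in R1003Q (9.12 with them).

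The replicate numbers are shared between groups, but the labels name no pairing, and same-numbered libraries did not deviate together throughout. Correlations were -0.69 for WT with R1855L, -0.68 for WT with R821H and 0.56 for R1855L with R821H. Those of R1003Q with the other groups lay between -0.12 and 0.087. The deep libraries are replicate 2 in WT and replicate 1 in R1855L and R821H, and the part of depth in these correlations was not tested. A replicate block called 0 of 14 cluster names in each mutant and 19 names in all in R1855L, against 36 without it. The block turned miR-127-3p (-0.010) and miR-376a-3p (0.030) in R821H and miR-369-5p (-0.012) in R1003Q. The other reversals that do not come from leaving out a library concern log2 fold changes of 0.20 or less in size. miR-127-3p in R821H (0.01) was -0.024 with DESeq2 size factors, -0.18 with library totals, -0.048 without a filter, -0.039 with the 4 libraries alone and -0.061 in DESeq2. In R1003Q the fit without a filter gave -0.081 for miR-369-5p and -0.062 for miR-411-5p, and the depth term gave -0.044 for miR-409-3p, 0.31 for miR-495-3p and 0.021 for miR-543. The cause was not tested.

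When each library was left out in turn, the sums and shares of strands kept their direction: 3p sums lay between -0.35 and -0.21 (R1855L), -0.31 and -0.18 (R821H) or -0.30 and -0.16 (R1003Q). The 5p sums lay between 0.58 and 0.69, 0.06 and 0.48, and 0.35 and 0.46 in that order, and the lowest of these came without R821H replicate 1. The 5p share lay 13.1 to 14.3, 4.45 to 10.3 and 8.52 to 9.73 percentage points above WT. The sum over all names was -0.08 to 0.05, -0.19 to -0.03 and -0.11 to 0.02. Calls of names stayed at 0, as did that of the miR-369 ratio, the only cluster ratio refitted with a library left out. The ratios of miR-409 and miR-376c were not refitted in this way. An arm left with 1 library was assumed to vary like the others. The log2 fold changes that changed sign had the following ranges. In R1855L they were -1.74 to 0.64 for miR-127-3p, -1.02 to 0.51 for miR-655-3p, -0.19 to 0.41 for miR-369-3p and -1.30 to 0.20 for miR-495-3p. In R821H they were -1.36 to 2.29 for miR-411-5p, -0.59 to 0.61 for miR-127-3p, -0.15 to 0.014 for miR-369-3p, -0.62 to 0.38 for miR-376a-3p and -0.55 to 0.030 for miR-381-3p. Also in R821H they were -0.019 to 0.69 for miR-154-5p and -0.53 to 0.80 for miR-382-5p. In R1003Q they were -1.19 to 0.050 for miR-127-3p, -0.23 to 0.70 for miR-382-5p, -0.40 to 1.92 for miR-411-5p, -2.08 to 0.37 for miR-655-3p and -0.34 to 0.32 for miR-369-5p. Also in R1003Q they were -0.56 to 0.10 for miR-376a-3p, -0.45 to 0.13 for miR-381-3p, -0.33 to 0.63 for miR-409-3p, -0.28 to 0.12 for miR-495-3p and -1.11 to 0.43 for miR-543. Among named differences that kept their sign, wide ranges were -6.82 to -1.74 for miR-409-3p, 1.47 to 3.79 for miR-411-5p, -2.36 to -0.18 for miR-376a-3p and -1.29 to -0.49 for miR-654-3p in R1855L, and -2.89 to -0.68 for miR-376c-3p and -1.52 to -0.60 for miR-409-3p in R821H. The strand ratio of miR-369 in R1003Q ranged from -0.12 to 0.61, the lower value without WT replicate 2. Depth limits the precision: 24 of the 74 names had at most 10 reads in all, and the median SE of a log2 fold change in R1855L was 0.58 for its tested names against 0.42 over all.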
